A study of Mus musculus with 7 samples.

Results

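The genes described here encode the proteins that carry out and steer the splicing of messenger RNA: Sm and LSm proteins, the SF3 complexes, SR proteins, hnRNP proteins and PRP factors. They were taken by symbol, as every gene whose name starts with Snrp, Lsm and a digit, Sf3a or Sf3b, Srsf, Hnrnp or Prpf, leaving out Snrpn and names ending in a pseudogene suffix, and with a mean of at least 10 normalized counts over the 7 libraries. Among the 47729 genes of the deposited file, 81 names matched and 77 were kept. Snrpn, the imprinted Sm gene, had a mean of 791 and was left out by name, Hnrnpa1l2-ps and Snrp1c-ps2 were left out as pseudogenes, and Snrpert was listed at 0. The 77 genes were 24 Sm and LSm, 9 SF3, 11 SR, 20 hnRNP and 13 PRP genes, and all 77 were among the 15029 genes tested.

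The study measured gene expression by RNA sequencing in mouse surface ectoderm, the outer epithelium of the embryo, cut by laser from frozen head sections in the stretch between the eye and the brain. Wild type embryos at stage E12.5 gave 3 libraries (replicates 2, 3 and 4), and embryos of the same stage with a knockout of the microRNA miR-205 gave 4 libraries (replicates 1 to 4). Each library was made from 3 pooled embryos, so the replicate is a pool, and p-values measure the spread between these pools. The strain and the makeup of the knockout allele are not given in the labels, no drug or other agent is named, and a library from wild type replicate 1, which the submitters removed as contaminated by other tissue, was not analysed here.

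An intron is removed by the spliceosome, which is put together anew on each intron from small nuclear ribonucleoprotein particles (snRNPs) and many other proteins. Sm proteins form a ring on the U1, U2, U4 and U5 RNAs, the LSm2 to LSm8 proteins form a like ring on the U6 RNA, and SF3 proteins belong to the U2 particle that binds the branch site. SR proteins mostly bind exonic enhancers and favour the use of nearby splice sites, hnRNP proteins coat the transcript and often act against them, and PRP factors work in the U4/U6.U5 particle, in the catalytic stage or beside U1.

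The sequence of the deleted microRNA and matches to it in 4 of the 77 genes are shown first, since a microRNA lowers messages that hold a match to its seed, bases 2 to 8. The mature miR-205-5p (RefSeq, GRCm38.p6, chr1:193507503-193507524, minus strand) is given with the seed in capitals. The matches, with flanking bases of the 3′ UTR (GENCODE M21, GRCm38), are given with the seed match in capitals, and with the following A where it makes the match an 8mer.
mmu-miR-205-5p: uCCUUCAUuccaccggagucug
Sf3b1, chr1:54986688-54986694, minus strand: tatgagcagacATGAAGGAtatattttac
Srsf10, chr4:135868580-135868586, plus strand: agagcggtaaaATGAAGGttatttgttgg
Sf3b3, chr8:110810584-110810590, minus strand: tgctttgagagATGAAGGgaggcaagcaa
Hnrnpr, chr4:136342849-136342855, plus strand: tgtatatttatATGAAGGtgttctaatta
Hnrnpr, chr4:136348543-136348549, plus strand: taaatgttaaaATGAAGGctctgctatcc
Matches were held by 6 members, 4 of which are shown, or 7.79% of the 77, against 1679 of 13534 tested genes (12.4%) with an annotated 3′ UTR of at least 30 bases. None of the 24 Sm and LSm genes held one.

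Promoters are shown for the 3 ring genes with the smallest p, as members of rings whose means were lower together. Each runs from 250 bases before to 50 bases after the RefSeq start (GRCm38.p6). Capitals mark a match to a transcription factor core motif, CCGGAAG of ETS factors in Snrpg and Snrpe and AAGATGGCG of YY1 in Lsm7.
Snrpg, chr6:86371290-86371589, plus strand: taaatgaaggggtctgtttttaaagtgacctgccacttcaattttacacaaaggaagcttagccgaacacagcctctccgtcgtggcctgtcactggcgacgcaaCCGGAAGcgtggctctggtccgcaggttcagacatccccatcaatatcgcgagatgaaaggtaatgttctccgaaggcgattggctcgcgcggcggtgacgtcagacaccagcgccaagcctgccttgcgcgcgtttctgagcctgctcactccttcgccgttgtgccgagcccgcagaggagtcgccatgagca
Snrpe, chr1:133610231-133610530, minus strand: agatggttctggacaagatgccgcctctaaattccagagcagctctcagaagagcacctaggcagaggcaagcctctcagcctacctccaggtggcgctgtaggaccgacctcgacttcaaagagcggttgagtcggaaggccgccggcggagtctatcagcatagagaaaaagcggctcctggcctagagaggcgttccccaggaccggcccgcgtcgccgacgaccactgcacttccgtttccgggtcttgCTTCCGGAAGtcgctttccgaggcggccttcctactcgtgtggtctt
Lsm7, chr10:80855160-80855459, minus strand: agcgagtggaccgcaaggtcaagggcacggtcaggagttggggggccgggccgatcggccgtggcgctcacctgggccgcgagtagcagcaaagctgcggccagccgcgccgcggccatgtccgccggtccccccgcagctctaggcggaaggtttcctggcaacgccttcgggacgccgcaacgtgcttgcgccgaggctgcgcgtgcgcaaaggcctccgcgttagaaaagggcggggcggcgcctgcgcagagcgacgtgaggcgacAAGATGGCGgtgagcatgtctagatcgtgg
The ETS match of Snrpg began 145 bases before the start. In Snrpe overlapping matches on both strands began 3 and 6 bases past it, and the YY1 match of Lsm7, whose first window in the table is shown, began 20 bases past it. Searched on both strands, CCGGAAG was in 23.1% of 13 windows of 11 ring genes, in 30.6% of 85 windows of 66 of the 77 genes, and in 8.86% of all 32851 windows of this length in the table. AAGATGGCG was in 15.4%, 4.71% and 1.40% of the same windows, and the SP1 box GGGCGG in 76.9%, 70.6% and 35.7%. The ring windows with AAGATGGCG were overlapping windows of Lsm7 that hold the same site, and no other ring gene had it. GCGCATGCG of NRF1 was in 7.69%, 4.71% and 1.75%, CCAAT in 46.2%, 47.1% and 37.4%, and TATAAA in 0%, 7.06% and 13.6%. Lsm4, Snrpb and Snrpd1 had no entry in the table.

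The libraries held between 8903523 and 12504790 reads. Wild type replicate 2 and knockout replicates 1 and 2 had under 10000000 each. Mir205 itself was listed at 0 in all 7 libraries, so its counts do not check the genotype. All 14 surface ectoderm markers were detected, and their summed normalized counts ran from 36747 to 46372 in wild type, and from 25485 to 41428 in knockout. The sum of 12 neuron and neural progenitor markers ran from 2430 to 11154 in wild type, and from 7952 to 13500 in knockout, that of 10 endothelial markers from 690 to 987 and from 905 to 2718, that of 10 macrophage markers from 447 to 1217 and from 873 to 1812, and that of 10 mesenchyme markers from 19122 to 22041 and from 20578 to 31605. The 11 erythroid markers summed to between 195275 and 771076 in wild type and between 163421 and 406123 in knockout. No marker of these lists was at 0 in every library. All 14 ectoderm markers had lower means in knockout, with a median log2 difference (knockout minus wild type) of -0.32, and all 11 erythroid markers did (-0.68). Means were higher in knockout for all 12 neuron (1.57), 10 endothelial (0.86) and 10 macrophage markers (0.96), and for 7 of 10 mesenchyme markers (0.25). In bulk samples of this kind, fewer cells of a type and less RNA per cell cannot be told apart.

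Mean values of the 77 genes were lower in knockout for 67 and higher for 10, with a median log2 difference (knockout minus wild type, on the log2(normalized count + 1) scale) of -0.09. Over all 15029 genes tested 48.3% had lower means and the median was 0.01. The Sm and LSm genes had the lowest median, -0.18 with 23 of 24 lower, against -0.09 for SR genes (9 of 11 lower), -0.09 for hnRNP genes (19 of 20), -0.05 for SF3 genes (8 of 9) and -0.05 for PRP genes (8 of 13). By limma-trend at an adjusted p under 0.1, 0 of the 77 genes passed, and 0% of all genes tested did. At an unadjusted p under 0.05, 16 of the 77 were lower and 0 higher, where 4.34% of all genes tested were lower and 5.44% higher. Of the 16, 12 were Sm and LSm genes, 2 hnRNP, 1 SR, 1 PRP and 0 SF3 genes.

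Other tests of the same libraries called a few. The authors' deposited table, which holds an adjusted p for each of the 77, had 4 under 0.1, all lower in knockout and all in the Sm and LSm rings, where 1.40% of its 11933 genes were called lower. DESeq2 on the recovered reads called 3 of the 77, also lower, where 0.768% of its genes were called lower, and edgeR's quasi-likelihood test called 0. In 13 of the 77 genes all 4 knockout libraries lay below all 3 wild type libraries, and in 0 they lay above, against 5.22% and 4.70% of all genes tested. The 13 were Snrpd2, Snrpe, Snrpf, Snrpg, Lsm4, Lsm5, Lsm7, Lsm12, Lsm14b, Srsf7, Hnrnpa3 and Hnrnph2, and 1 gene not reported here.

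**Figure D1:**
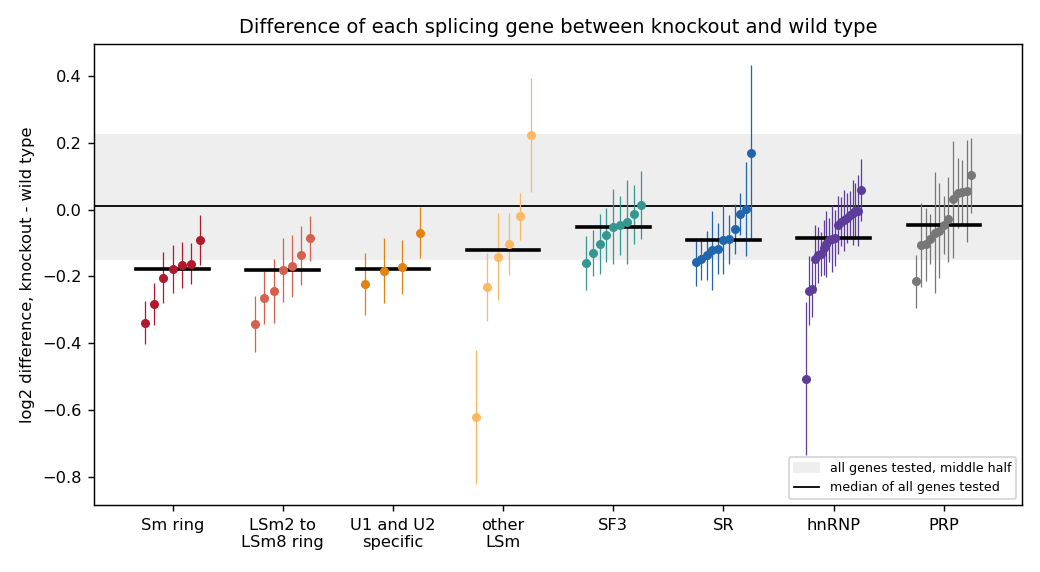
Log2 difference of knockout minus wild type for each of the 77 genes, on the log2(normalized count + 1) scale, grouped by family and by role within the Sm and LSm genes, with 1 point per gene, its SE as a bar and a black line for the median of each group; the grey band and thin line give the quartiles and median of all genes tested. The Sm and LSm genes lie lowest, with a median of -0.18, and Lsm11 is their single gene above 0.

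The Sm ring, whose 7 proteins bind the U1, U2, U4 and U5 RNAs as a closed ring, had lower mean values in knockout for each of its 7 genes, with a median log2 difference of -0.18. Snrpg (ENSMUSG00000057278, chr6:86371304-86379328, plus strand), which encodes SmG, had 4045, 4533 and 4297 normalized counts in wild type replicates 2, 3 and 4 and 3367, 3536, 3447 and 3220 in knockout replicates 1 to 4. All 4 knockout libraries lay below the lowest wild type library, at 79.0% of the wild type mean. The log2 difference of Snrpg was -0.34 (SE 0.06, limma-trend adjusted p 0.299), and the authors' deposited table gave an adjusted p of 0.000273. DESeq2 gave Snrpg an adjusted p of 0.00147 and edgeR 0.286. Without wild type replicate 2 limma-trend called it (adjusted p 0.0923), and over all settings its adjusted p was between 0.00147 and 0.708.

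Snrpe (ENSMUSG00000090553, chr1:133603871-133610291, minus strand), which encodes SmE, had 4977, 5108 and 4615 in wild type, against 3940, 3882, 4232 and 4046 in knockout. The groups did not overlap here either, and the knockout mean was 82.1% of the wild type mean. Its log2 difference was -0.28 (SE 0.06, limma-trend adjusted p 0.312), the authors' deposited table gave an adjusted p of 0.00326 and DESeq2 0.00979, within a range over all settings of 0.00979 to 0.716. The partners of these proteins in the ring had smaller differences. Snrpf, which encodes SmF, had 1586 to 1703 normalized counts in wild type, against 1419 to 1494 in knockout, and Snrpd2, which encodes SmD2, had 2451 to 2602 and 2210 to 2335. Neither pair of groups overlapped, and the log2 difference was -0.17 for Snrpf and -0.16 for Snrpd2.

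In the remaining 3 genes of the Sm ring the highest knockout library reached into the wild type range. Snrpd1 (SmD1) had 2591, 2444 and 2665 in wild type, against 2105, 2206, 2128 and 2488 in knockout, where replicate 4 was the one inside the range. Snrpd3 (SmD3) had 2633, 2842 and 2869 against 2684, 2310, 2392 and 2461, with knockout replicate 1 inside it. Snrpb, which encodes SmB and its splice form, had 5247, 5700 and 5499 against 5061, 4584, 5600 and 5393, and its log2 difference of -0.09 was the smallest of the ring. An unadjusted p under 0.05 was reached by 6 of the 7 genes, Snrpb being the exception, where 4.34% of all genes tested were lower at that p.

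The LSm2 to LSm8 ring, which holds the end of the U6 RNA, also had 7 of 7 genes with lower means and a median log2 difference of -0.18. Lsm7 (ENSMUSG00000035215, chr10:80852821-80855209, minus strand) had 1547, 1550 and 1632 normalized counts in wild type, against 1182, 1402, 1180 and 1216 in knockout. All 4 knockout libraries were below the wild type libraries, with replicate 2 apart from the other 3. The log2 difference was -0.34 (SE 0.08, limma-trend adjusted p 0.312). The authors' deposited table gave Lsm7 an adjusted p of 0.0159 and DESeq2 one of 0.0468, within a range over all settings of 0.0468 to 0.708.

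Lsm4 (ENSMUSG00000031848, chr8:70673248-70678752, plus strand) had 2471, 2715 and 2819 in wild type, against 2172, 2024, 2306 and 2392 in knockout, without overlap. Its log2 difference was -0.26 (SE 0.08, limma-trend adjusted p 0.387), and the authors' deposited table gave an adjusted p of 0.097. Over all settings the adjusted p of Lsm4 was between 0.143 and 0.789. Lsm5 had 855 to 964 in wild type, against 702 to 845 in knockout, a log2 difference of -0.24. The other 4, Lsm2 (-0.17), Lsm3 (-0.18), Lsm6 (-0.09) and Lsm8 (-0.14), overlapped between groups and had unadjusted p above 0.05.

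**Figure D2:**
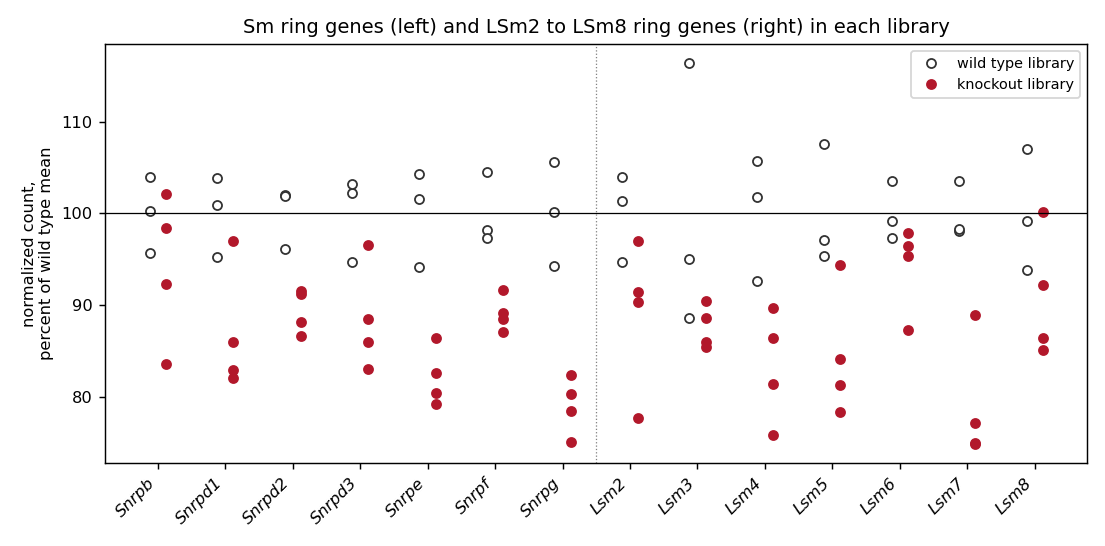
Normalized counts of the 14 genes of the Sm and LSm2 to LSm8 rings in each library, as a percentage of the wild type mean of the gene, with open points for wild type and red points for knockout libraries. Snrpg and Lsm7 have the lowest knockout means, each at 79.0% of the wild type mean.

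Each of the 4 genes for proteins that belong to U1 or U2 alone had a lower mean in knockout, and in each the groups overlapped. Snrpb2, which encodes the U2-B″ protein, had 1036, 1180 and 1233 in wild type, against 1079, 989, 934 and 936 in knockout, a log2 difference of -0.22 with 1 knockout library inside the wild type range. Its U2 partner Snrpa1 had -0.18, and of the U1 proteins Snrpc (U1-C) had -0.17 and Snrpa (U1-A) -0.07.

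The 6 LSm genes outside the U6 ring had log2 differences from -0.62 to 0.22. Lsm14b (ENSMUSG00000039108, chr2:180024987-180035465, plus strand), which encodes a protein of stored and silenced messenger ribonucleoproteins, had 384.5, 366 and 393 in wild type, against 311, 199, 311 and 193 in knockout. Its log2 difference of -0.62 (SE 0.20, limma-trend adjusted p 0.431) was the lowest of the 77, and its knockout libraries fell into a pair near 311 and a pair under 200. Lsm12 was also lower in all 4 knockout libraries (-0.23). Lsm1, which replaces LSm8 in the cytoplasmic ring of mRNA decay, had -0.10 and Lsm14a -0.02, both overlapping. Lsm10 and Lsm11 take the place of Sm proteins in the U7 particle that trims histone messages. Lsm10 had -0.14, and Lsm11 had 182, 210 and 193 in wild type, against 199, 274, 202 and 242 in knockout, the highest log2 difference of the 77 at 0.22 (SE 0.17, limma-trend adjusted p 0.672).

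The SF3 genes, whose proteins anchor U2 at the branch site, had 0 of 9 genes with non-overlapping groups and 0 with an unadjusted p under 0.05. Over all genes tested 5.22% had knockout below and 4.70% above, and 4.34% were lower and 5.44% higher at that p. Sf3b6, which encodes the small protein beside the branch adenosine, had 2329, 2161 and 1954 in wild type, against 1797, 1994, 1878 and 2005 in knockout, the lowest difference of the family (-0.16, SE 0.08). Sf3b1, the large scaffold of the SF3B complex, had 3089, 3312 and 3323 against 2919, 2788, 2933 and 3225, a log2 difference of -0.13 (SE 0.07). In both genes the upper knockout libraries lay within the wild type range. Sf3b2 had the single positive difference, 0.01, and Sf3a2, the lowest of the family per kb of exon, had -0.04 (SE 0.13). The family median of -0.05 was -0.12 without wild type replicate 2, -0.02 without knockout replicate 2 and 0.01 among the 3 libraries under 10000000 reads.

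Among the 11 SR genes, Srsf7 was the one with non-overlapping groups, with knockout below, beside 5.22% of all genes tested. Srsf7 had 6054, 6311 and 5842 in wild type, against 5516, 5042, 5571 and 5784 in knockout, a log2 difference of -0.15 (SE 0.06, limma-trend adjusted p 0.486). Srsf3, a related SR protein with a single RNA-binding domain, had 10056, 10881 and 10696 against 9657, 8456, 9386 and 10370, with 1 knockout library inside the wild type range and a log2 difference of -0.16 (SE 0.07). Srsf9 had -0.09, Srsf1, the founding member of the family, -0.06, Srsf2 -0.09, Srsf6 -0.14, Srsf11 -0.12, Srsf5 -0.12 and Srsf10 -0.01, and Srsf4 had 0.00. Srsf12, with 70.2 to 101 normalized counts in wild type, against 70.7 to 118 in knockout, was the highest at 0.17 with a SE of 0.26. The family median of -0.09 was -0.155 without wild type replicate 2 and -0.05 without wild type replicate 3.

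In 2 of the 20 hnRNP genes the groups did not overlap, with knockout below, beside 5.22% of all genes tested. Hnrnpa3, of the A/B group that binds UAG-type motifs, had 3255, 3663 and 3834 in wild type, against 2992, 2725, 3206 and 3221 in knockout, a log2 difference of -0.24 (SE 0.08, limma-trend adjusted p 0.442). Hnrnph2, of the group that binds runs of G, had 2004, 2059 and 2054 against 1776, 1816, 1959 and 1892, a difference of -0.13 (SE 0.07). Hnrnpa0, related to Hnrnpa3, had 1686, 1942 and 2233 against 1692, 1476, 1641 and 1764, where knockout replicates 1 and 4 overlapped wild type replicate 2.

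Hnrnpul2, a nuclear protein with roles in DNA repair, had the lowest log2 difference of the family, -0.51, but also the widest spread, with 338, 217 and 401 in wild type, against 270, 175, 210 and 224 in knockout (SE 0.23, limma-trend adjusted p 0.513). Among the hnRNP genes with the highest counts, differences were small. Hnrnpk, which binds C-rich RNA, had 16532 to 18229 normalized counts in wild type, against 15227 to 18770 in knockout (-0.03), and Hnrnpa1 had 9150 to 10782 and 8921 to 10930 (-0.01). Hnrnpab had -0.02, and Hnrnpdl had the single positive difference, 0.06. The family median of -0.09 was -0.02 without knockout replicate 2 and -0.01 without knockout replicates 1 and 2.

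The PRP genes were split, with 8 of 13 lower and 5 higher. Prpf18, a factor of the second catalytic step, had 679, 733 and 577 in wild type, against 749, 766, 661 and 665 in knockout (0.10, SE 0.11), with overlapping groups. Prpf8, the core protein of the U5 particle, had 0.05, and of the proteins of the U4/U6 particle Prpf31 had 0.05, Prpf3 0.03 and Prpf4 -0.07. Prpf19, the ubiquitin ligase of the catalytic-stage complex, had -0.05, and Prpf40b 0.05. The family median of -0.05 was 0.00 without wild type replicate 4, -0.10 without knockout replicate 4 and 0.01 without knockout replicates 1 and 2.

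The families were then set side by side in each library, as the mean log2 value over the genes of each. The Sm ring had 11.60, 11.66 and 11.66 in wild type replicates 2, 3 and 4 and 11.45, 11.39, 11.46 and 11.46 in knockout replicates 1 to 4. The LSm2 to LSm8 ring had 10.58, 10.69 and 10.62 against 10.40, 10.39, 10.44 and 10.49. All knockout libraries lay below all wild type libraries in both rings, in the U1 and U2 proteins and in the other LSm genes. In the SF3, SR, hnRNP and PRP families they overlapped, and knockout replicate 2 was the lowest library of each. For hnRNP genes the values were 11.60, 11.71 and 11.74 against 11.62, 11.43, 11.60 and 11.68.

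Taking the family means from each other within a library removes what all families share there. The Sm ring minus the 53 genes outside the Sm and LSm family was 0.80, 0.73 and 0.73 in wild type, against 0.62, 0.69, 0.64 and 0.55 in knockout, a difference of -0.13 without overlap. For the whole Sm and LSm family, the difference from the SF3 family (-0.12) and from the PRP family (-0.15) did not overlap between groups. Its difference from the SR family (-0.11) and from the hnRNP family (-0.08) did, with knockout replicate 2 within the wild type range in both. No p is given for these scores, since the genes were chosen with results of these libraries known.

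**Figure D3:**
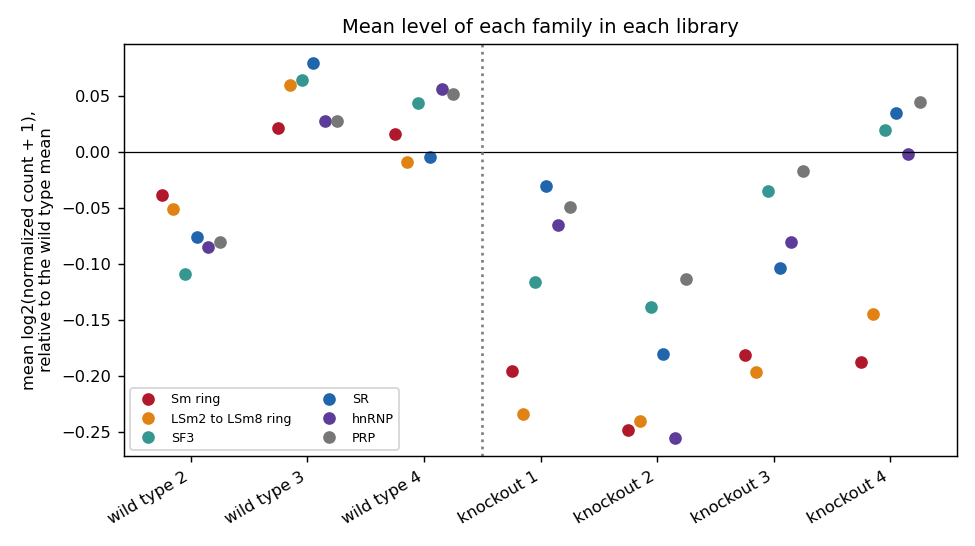
Mean log2(normalized count + 1) of each family in each library, relative to its wild type mean, 1 point per family and library. In both rings all 4 knockout libraries lie below all 3 wild type libraries, while the SF3, SR, hnRNP and PRP families overlap between the groups.

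The Sm and LSm values were compared with the tissue markers. Wild type replicate 2 had a neuron marker sum of 11154, inside the knockout range, and its Sm ring mean of 11.60 was above the highest knockout value of 11.46, though the lowest of the wild type values. It was also the lowest wild type library for the LSm2 to LSm8 ring (10.58) and for the whole Sm and LSm family (10.46). Knockout replicate 3 had an ectoderm marker sum of 41428, inside the wild type range, and its Sm ring mean of 11.46 was below the lowest wild type value. Its macrophage (1050) and mesenchyme (20609) sums were also inside the wild type ranges. However, its neuron sum of 13500 was the highest of any library, and its endothelial sum of 1284 was above the highest wild type sum of 987. Without knockout replicates 1 and 2, which had the lowest ectoderm sums, the median log2 difference was -0.18 for the Sm ring and -0.16 for the LSm2 to LSm8 ring, with 13 of the 14 ring genes lower. Within the 4 libraries over 10000000 reads the medians were -0.19 and -0.18, and among the 3 libraries below that depth, 1 of them wild type, they were -0.13 and -0.18. The part of tissue makeup in the ring values was not tested. The sum of 16 proliferation genes ran from 31536 to 38977 in wild type, and from 29645 to 37815 in knockout.

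Transcript length moved with the difference over all genes and also separates the families. The median length of the principal transcript (GENCODE M21) was 1108 nt for Sm and LSm genes, 2618 nt for SR, 2678.5 nt for hnRNP, 3222 nt for SF3 and 3308 nt for PRP genes. Of the 765 tested genes with a principal transcript of up to 1000 nt, 70.8% had lower means in knockout, the median log2 difference was -0.12, and in 23.4% all knockout libraries lay below all wild type libraries. The 11 Sm and LSm genes in that class had a median of -0.18, and 5 of the 11 had such non-overlapping groups.

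Between 1000 and 2000 nt the median over 2699 genes was -0.03, with 7.41% of them non-overlapping in that direction, and that of 5 Sm and LSm genes was -0.16, with 2 of the 5. Between 2000 and 4000 nt the median over 5610 genes was 0.03, with 3.48% non-overlapping, while the 7 Sm and LSm genes had a median of -0.18, with 2 of the 7, Lsm12 and Lsm14b. Of those 7 genes 5 lie outside the rings. The single Sm ring gene among them, Snrpd3, had -0.18, and Lsm6, the single LSm2 to LSm8 ring gene longer than 1000 nt, had -0.09, the smallest difference of that ring. Over 4000 nt the median of 4556 genes was 0.05, and the single Sm and LSm gene there, Lsm11, had 0.22. Among the other families the median was -0.04 for 13 hnRNP genes, -0.12 for 7 SR genes and 0.03 for 7 PRP genes between 2000 and 4000 nt. The part of length in the values of the rings was not tested.

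**Figure D4:**
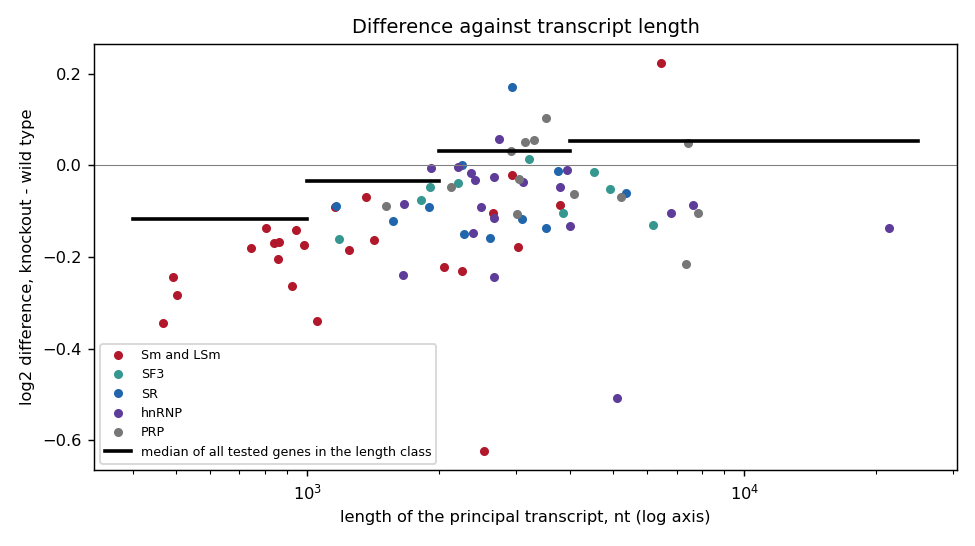
Log2 difference of knockout minus wild type against principal transcript length (nt, log axis) for the 77 genes coloured by family, with black lines for the median of all tested genes in each length class. The class medians go from -0.12 up to 1000 nt to 0.05 over 4000 nt, and the Sm and LSm genes between 2000 and 4000 nt have a median of -0.18.

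Levels were compared between genes as wild type normalized counts per kb of annotated exon. In the Sm ring the order was Snrpe (3571 ± 186, SD, n = 3), Snrpb (2774 ± 115), Snrpg (2734 ± 155), Snrpf (1893 ± 73.7), Snrpd1 (1251 ± 54.8), Snrpd2 (974 ± 33.1) and Snrpd3 (808 ± 37.6). Snrpb and Snrpg were closer than their SDs, and the other neighbours differed by more. By principal transcript length instead the order became Snrpe (9741), Snrpb (4722), Snrpg (4068), Snrpd1 (2992), Snrpf (1893), Snrpd2 (1796) and Snrpd3 (916), so Snrpf and Snrpd1 changed places. In the LSm2 to LSm8 ring Lsm4 was highest per kb of exon at 2571 ± 173 and Lsm8 lowest at 301 ± 20.0. Both ends changed by principal transcript length, where Lsm7 (3368) was above Lsm4 (2885) and Lsm6 (598) was lowest, with Lsm8 at 1567.

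In the other families the highest levels per kb of exon were those of Hnrnpab (3493 ± 237) and Hnrnpa1 (3230 ± 285), which lay within their SDs of each other, Srsf9 (1714 ± 133) and Srsf7 (1710 ± 66.2), also within their SDs, Sf3b4 (771 ± 72.6) and Prpf19 (329 ± 20.6). The lowest levels on that scale belonged to Prpf39 (25.3 ± 3.46), Srsf12 (27.3 ± 4.97) and Lsm11 (30.2 ± 2.18). By principal transcript length the leaders were Hnrnpa2b1 (7425, with Hnrnpab at 4100), Srsf3 (4028), Sf3b6 (1820) and, as before, Prpf19 (1121). The lowest on that scale were Srsf12 (29.3), Lsm11 (30.2) and Hnrnpul2 (62.3), with Prpf39 at 74.3. The order within these families therefore depends on which length is used.

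**Figure D5:**
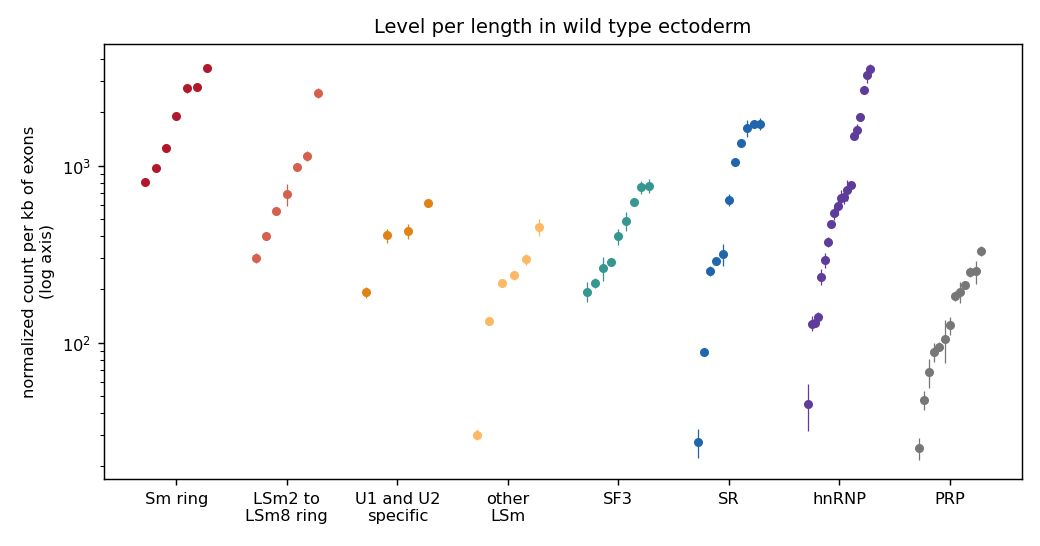
Wild type level of each of the 77 genes in normalized counts per kb of annotated exon (log axis), by family and role, as the mean of 3 libraries with its SD as a bar. Snrpe and Hnrnpab are the highest, at 3571 and 3493 per kb, and Prpf39 is the lowest at 25.3 per kb; by principal transcript length Snrpe and Hnrnpa2b1 are the highest and Srsf12 the lowest.

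None of the 6 genes with a miR-205 seed match had a higher mean in knockout. Their median log2 difference was -0.12, against -0.09 for the 71 genes without one, while over all tested genes with a 3′ UTR it was 0.08 with a match and 0.01 without. Sf3b1, which holds the 8mer, had -0.13 (SE 0.07). Hnrnpr, with 2 matches in an annotated 3′ UTR of 19419 nt, had -0.14 (SE 0.08), and Sf3b3 and Srsf10 each had -0.01.

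The splicing machinery also has genes with other names. Of 52 other core spliceosome genes 41 had lower means (median log2 difference -0.10) and 4 were lower at an unadjusted p under 0.05, beside 48.3% and 4.34% of all genes tested. The authors' deposited table called 2 of the 52 lower and DESeq2 0, beside 1.40% and 0.768% over all genes. Bcas2, of the PRP19 complex, had 1848, 2013 and 1949 in wild type, against 1667, 1522, 1544 and 1715 in knockout (-0.27, SE 0.07), and U2af1, which reads the AG at the 3′ splice site, had a mean of 1919 against 1657 (-0.21, SE 0.07). Knockout lay wholly below wild type in 10 of the 52 genes and above in 0, beside 5.22% and 4.70% of all genes tested. Bcas2 and U2af1 were among the 10, and both missed an adjusted p of 0.1 by limma-trend (0.361 and 0.435). Among the 9 genes of the minor spliceosome, which removes a rare class of introns, 5 had lower means, with Zcrb1 at -0.21 and Snrnp25 at -0.20.

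Of the 17 genes that load Sm proteins onto RNA, such as the SMN complex, 14 had lower means but the median was -0.05 and 1 reached an unadjusted p under 0.05 in that direction, near the 4.34% of all genes tested. That was Wdr77, a partner of the arginine methyltransferase that modifies Sm proteins, with 1038, 1206 and 1116 against 954, 894, 892 and 1070, overlapping (-0.23, SE 0.10). Gemin8, of the SMN complex, had -0.41 with a SE of 0.26. Of 27 SR kinases and SR-related proteins 19 had lower means (median -0.06) and 6 were lower at an unadjusted p under 0.05, where 4.34% of all genes tested were. The authors' deposited table called 1 of the 26 it gives an adjusted p for, as lower, and DESeq2 called 0, beside 1.40% and 0.768% over all genes. Acin1 had 727, 767 and 790 against 626, 566, 613 and 655 (-0.31, SE 0.09), and Scaf11 had -0.30 (SE 0.10), both without overlap. Knockout lay wholly below wild type in 4 of the 27 genes and above in 0, beside 5.22% and 4.70% of all genes tested.

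RNA-binding proteins of the hnRNP kind with other names gave 4 of 25 genes higher and 1 lower at an unadjusted p under 0.05, with 17 of 25 lower means and a median of -0.04; over all genes tested 5.44% were higher and 4.34% lower at that p. The authors' deposited table called 2 of the 25 higher and DESeq2 1, beside 171 of 11933 and 110 of 14712 over all genes. Cirbp, the cold-inducible RNA-binding protein, had 653, 706 and 711 in wild type, against 863, 893, 967 and 830 in knockout (0.36, SE 0.09, limma-trend adjusted p 0.330). Pcbp3 had 272, 261 and 282 against 331, 502, 422 and 370 (0.56, SE 0.16). Both were higher in each knockout library than in any wild type library. Knockout lay wholly above wild type in 4 of the 25 genes and below in 1, beside 4.70% and 5.22% of all genes tested. In the exon junction complex, which marks spliced messages, 7 of 13 genes had lower means with a median of -0.01. The authors' deposited table and DESeq2 each called 1 of the 13 lower, beside 1.40% and 0.768% over all genes. Magoh, of its core, had 1374, 1443 and 1295 against 1023, 1043, 1081 and 1175 (-0.34, SE 0.08, limma-trend adjusted p 0.312), while its core partner Eif4a3 had -0.12.

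In a list of splicing regulators, many of them restricted to certain tissues, 22 of 27 genes had higher means, with a median of 0.67. At an unadjusted p under 0.05, 5 were higher, beside 5.44% of all genes tested. The list also holds genes with high counts in wild type, such as Qk (mean 2407, log2 difference 0.21) and Celf1 (1810, 0.14). The authors' deposited table called 0 of the 21 it gives an adjusted p for, and DESeq2 called 0. The 5 genes with lower means included Esrp2 (-0.45, SE 0.22) and the ectoderm marker Esrp1 (-0.28, SE 0.19), both with overlapping groups. Celf2 (0.08), Mbnl1 (0.06) and Mbnl2 (0.02) had small differences. The largest difference of the list, 2.52 for Srrm4, rested on a wild type mean of 28.3 normalized counts. Rbfox2 had 714, 788 and 699 in wild type, against 1042, 1015, 823 and 843 in knockout, without overlap (0.34, SE 0.11). Knockout lay wholly above wild type in 3 of the 27 genes and below in 0, beside 4.70% and 5.22% of all genes tested. Nova2, a neuronal regulator, had 48.8, 4.30 and 2.81 against 23.7, 35.2, 70.7 and 62.1, where wild type replicate 2 lay inside the knockout range (2.16, SE 0.86). The neuron marker sums given above were likewise high in wild type replicate 2 and in the knockout libraries, and their part in these values was not tested.

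Values of some genes rest on counts that other loci could share. Of the 77 genes 20 had a stretch of at least 100 nt in their transcripts that matched a transcript of another gene at 98% identity or more, among them Hnrnpa3 with 15 such genes, Hnrnpf with 7, Snrpc with 6 and Hnrnpa1 with 5. Snrpg, Snrpe, Snrpd2 and Snrpf had 1 each and Lsm7 and Lsm5 2 each. The matching stretches covered 34.2% of the longest transcript of Lsm5, 33.6% of Snrpe, 30.0% of Snrpf, 27.8% of Lsm7, 25.1% of Snrpd2 and 21.9% of Snrpg. They covered 66.6% of that of Sf3b4 and 59.5% of that of Hnrnpf. Exons of 27 of the 77 overlapped exons of another gene, such as Snrpf with Ccdc38 over 567 nt on the opposite strand and Hnrnpm with March2 over 1169 nt on the same strand. Whether the counting used strand is not stated in the labels, so the values of these genes are uncertain.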

How the data were processed

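The submitters' processing notes name TopHat2 2.0.9 for mapping to GRCm38, HTSeq for counting reads by gene and DESeq2 for testing; whether the counting used strand is not stated there or in the labels. The deposited signal columns hold normalized counts, which the authors made by dividing reads by 1 size factor a library. The log2 column of the authors' table is their fold change of knockout over wild type, and its p-value columns hold the authors' DESeq2 p and adjusted p. Taking the smallest value above 0 in a library as 1 read made 100% of values whole reads within 0.01 read, and recovered totals were between 8903523 and 12504790 reads. At these totals counting error weighs most on genes with few reads.

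Groups were taken from the labels, 3 wild type against 4 knockout libraries. Values on the log2(normalized count + 1) scale were tested with limma-trend (limma 3.58.1, R 4.3.3; robust). The 15029 genes whose mean reached 10 entered, p was adjusted over all of them by Benjamini-Hochberg, and the threshold was 0.1. The pseudocount of 1 understates changes of low genes. On recovered reads edgeR 4.0.16 called 0 genes and DESeq2 1.42.0 called 223 (110 higher, 113 lower). Other pseudocounts (0.25 and 5), filters (none, or at least 10 in every library), TMM scaling, depth as a covariate, a replicate block, depth classes and leaving out libraries were tried as well; the 3 libraries under 10000000 reads and the level by principal transcript were added after seeing the data. The scripts were tested on simulated data.

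Transcript lengths, 3′ UTRs, exon overlaps and near-identical copies came from GENCODE M21, and promoters and the microRNA from RefSeq tables on GRCm38.p6. Genes named with full values were those with the 5 smallest p in each direction, in each family the highest per kb, the lowest in mean and the largest differences in each direction, up to 5 with a seed match, and the 2 smallest p of each other list; further ring genes, genes with non-overlapping groups and abundant genes were chosen after their values were seen. The members and lists were chosen with earlier results of these data known. Some single items are not reported here.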

Additional observations from a re-analysis of the deposited data

Results flagged for a closer look

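In 34 sets of 4 knockout libraries, 1 library was set against the other 3 for its distance, and in 3 sets it stood apart; chance alone gives about 1 in 20. Lsm7 had 1402 normalized counts in knockout replicate 2, above the other 3 knockout libraries, which lay between 1180 and 1216, and still below the wild type libraries. Prpf40b had 270.5 in knockout replicate 3, above 232 to 235 in the others. The mean log2 value of the Sm and LSm genes was 10.28 in knockout replicate 2, below 10.32 to 10.33 in the others.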

How the results depend on the processing

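The count of genes past an adjusted p of 0.1, 0 by limma-trend, was 2 with at least 10 in every library, 223 by DESeq2, 38 in the 4 libraries over 10000000 reads, 8 in the 3 under it, where the 1 wild type library is assumed to vary like the knockout libraries, and 3 without knockout replicates 1 and 2; with 1 library left out it was 0 to 84, the most without wild type replicate 2. Among the 77 genes, all in the Sm and LSm family, it was 3 by DESeq2 and 0 to 1 with 1 library left out. The Sm and LSm median of -0.18 was -0.135 in the 3 libraries under 10000000 reads and -0.20 to -0.16 with 1 library left out, and the Sm ring median was -0.13 in those 3 libraries. All 14 ring genes had lower means in each setting except without knockout replicates 1 and 2, where 13 had. Log2 differences near 0 changed sign in places. In the 4 deeper libraries Hnrnpdl had -0.049 and Hnrnpab 0.0074. In the 3 shallower ones Prpf31 had -0.041, Sf3b4 0.092, Sf3a2 0.14, Srsf9 0.062, Hnrnpab 0.017 and Hnrnpr 0.0052. Hnrnpab had 0.0054 with depth as a covariate and 0.065 without knockout replicates 1 and 2. With 1 library left out the log2 difference ran from -0.12 to 0.014 for Sf3b4, -0.13 to 0.053 for Sf3a2, -0.081 to 0.094 for Sf3b2, -0.074 to 0.030 for Hnrnpab, -0.087 to 0.0025 for Prpf19, -0.050 to 0.11 for Prpf40b and -0.026 to 0.0051 for Srsf10. The cause was not tested. Same-numbered libraries of the 2 groups deviated with correlations of 0.097, 0.11 and -0.011, inside the range of the other pairs (-0.215 to 0.157). The labels do not say whether the numbers pair the libraries, and so few pairs cannot decide it. With a replicate block, which could use numbers 2 to 4 only, 3 genes passed and 0 of the 77. The median of all genes moved by under 0.1 in each scaling. Depth limits the lowest genes most, such as Srsf12 with 70.2 to 118 normalized counts.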
